A study of Mus musculus with 8 samples.

Results

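The testis-specific serine kinase family was followed through 7 genes, *Tssk1*, *Tssk2*, *Tssk3*, *Tssk4*, *Tssk5*, *Tssk6* and *Tsks*, chosen by name from the 23343 genes of the RNA tables. Each had 1 row in every RNA table. Their RNA was read in meiotic cells, pachytene spermatocytes (PS), and in haploid cells, round spermatids (RS), of *Rnf8;Scml2* double-knockout (dKO) mice. H3K27ac at their start sites was read in the same 2 cell types of wild type mice. All 8 samples came from testis of adult C57BL/6 animals, with 2 replicates for each stage in each assay. *Rnf8* and *Scml2*, which encode a ubiquitin ligase and a germ cell Polycomb protein, were thus knocked out in both stages of the RNA-seq and intact in both stages of the ChIP-seq, by the labels. No RNA of another genotype was analysed here, so each RNA difference is one of stage within the dKO. Cells were purified by BSA gravity sedimentation, at small scale for the dKO, where both cell types could be taken from 1 male.

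Testis-specific serine kinases are small serine/threonine kinases made almost entirely in male germ cells, most of them after meiosis. Their kinase domain is related to that of the AMPK branch of the kinome. They act late, while the spermatid condenses its nucleus and builds its flagellum, and loss of *Tssk1* and *Tssk2* together, of *Tssk3* or of *Tssk6* makes male mice infertile. *Tsks* encodes no kinase: it is a testis-specific substrate and scaffold bound by TSSK1 and TSSK2. H3K27ac is a histone mark of active promoters and enhancers. In these data it was read in wild type cells and the RNA in dKO cells, so it does not give the chromatin of the cells whose RNA was read.

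In mm10, the build of the files, *Tssk1* (NM_009435, chr16:17894203-17895653, plus strand) and *Tssk2* (NM_009436, chr16:17898637-17900024, plus strand) stand in tandem, with start sites 4434 bp apart. Both are single-exon genes, as is *Tssk6* (NM_032004, chr8:69902215-69903518, plus strand). *Tssk3* (NM_080442, chr4:129489008-129490770, minus strand) has 2 exons, *Tssk4* (chr14:55650184-55652539, plus strand, 3 transcripts counted in 1 row) has 4, and *Tssk5* (NM_183099, chr15:76371958-76374938, minus strand) has 8. *Tsks* (chr7:44943240-44958037, plus strand, 2 transcripts in 1 row) has 11. Exon numbers are those of RefSeq on GRCm38.p6, whose coordinates matched the files except for the start of *Tssk6*, 31 bp farther upstream, and the end of *Tsks*.

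*Tssk1* and *Tssk2* were the closest pair in sequence. Their coding regions were identical at 81.3% of 1050 aligned bases, and 8.92% of the 50-base words of the *Tssk1* transcript occurred exactly in *Tssk2*. Reads of that length or shorter from those stretches cannot be assigned to 1 of the pair by unique alignment, so the separate levels of *Tssk1* and *Tssk2* are uncertain to that extent. No 50-base word of the other 5 genes was shared with another of the 7.

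RefSeq promoters matched 6 of the 7 genes: *Tssk1*, *Tssk2*, *Tssk3*, *Tssk4*, *Tssk6* and *Tsks*. The 250 bases before the start site are shown for *Tssk1*, *Tssk2* and *Tssk6*. *Tssk1* and *Tssk2* are in tandem, and their promoters gave the highest local alignment score. *Tssk6* was the one start site whose H3K27ac fold enrichment did not separate the stages. In *Tssk1* (chr16:17893953-17894202) and *Tssk2* (chr16:17898387-17898636), both on the plus strand of GRCm38.p6, capitals mark TGACTTCA on either strand and an 11-base stretch held by both.
Tssk1: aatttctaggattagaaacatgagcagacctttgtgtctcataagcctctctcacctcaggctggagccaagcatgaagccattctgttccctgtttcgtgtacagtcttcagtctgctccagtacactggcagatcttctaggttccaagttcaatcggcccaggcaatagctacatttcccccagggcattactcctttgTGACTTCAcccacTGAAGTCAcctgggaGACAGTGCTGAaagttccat
Tssk2: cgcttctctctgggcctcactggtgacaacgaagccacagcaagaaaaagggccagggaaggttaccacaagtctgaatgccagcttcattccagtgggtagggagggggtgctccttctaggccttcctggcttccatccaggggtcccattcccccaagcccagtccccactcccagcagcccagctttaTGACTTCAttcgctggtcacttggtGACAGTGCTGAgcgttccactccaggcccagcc
In *Tssk6* (chr8:69901934-69902183, plus strand), capitals mark TGACG and GGGCGG on either strand.
Tssk6: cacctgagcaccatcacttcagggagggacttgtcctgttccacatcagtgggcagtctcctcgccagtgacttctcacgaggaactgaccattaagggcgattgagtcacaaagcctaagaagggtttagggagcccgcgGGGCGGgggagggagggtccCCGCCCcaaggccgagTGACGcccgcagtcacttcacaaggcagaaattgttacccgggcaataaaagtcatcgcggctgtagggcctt

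The shared 11 bases, GACAGTGCTGA, began 20 bases before the *Tssk1* start and 33 bases before the *Tssk2* start. The best local alignment of the 2 promoters covered 109 bases with 75.2% identity and scored 29, against 9 to 18 in the other 14 pairs of promoters. TGACTTCA, chosen after these sequences were read, lay in both, 48 and 58 bases before the start, and *Tssk1* held its reverse complement as well. It was found on either strand in 1.31% of the 32851 RefSeq promoters of the same length and in no other of the 6. The full cAMP response element TGACGTCA, in 1.55% of all promoters, was in none of the 6, and its shorter form TGACG, in 17.8%, only in *Tssk6*. GGGCGG, the GC box, was in 32.7% of all promoters and only in *Tssk6* here, and neither TATAAA (12.4% of all) nor GTTGCC (10.4%, a half-site of RFX factors) was in any of the 6. Motifs were sought on both strands. GGGCGG and TGACG did not overlap in *Tssk6*. The *Tssk4* promoter had a GC content of 40.8%, below the lower quartile of 45.2% over all promoters, and the other 5 had 48.4% to 59.6%.

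The RNA of all 7 genes was higher in RS than in PS, by 6.66-fold for *Tssk1* to 19.7-fold for *Tssk6*. This was 7 of 7 genes called higher, beside 30.4% of the 14647 genes tested, and 0 of 7 called lower, beside 27.6%. DESeq2 gave the same 7 and 0, and 0 of 7 were lower at an unadjusted p under 0.05. The median log2 fold change of the 7 was 3.43, beside 0.01 over all genes tested. A call is an adjusted p under 0.05 from edgeR's quasi-likelihood test on reads with at least a 1.5-fold change. In purified cells as in any bulk sample, fewer cells of a type and less RNA per cell cannot be told apart. Levels below are in RPKM, the reads of a gene scaled to its transcript length and to the size of the library, and folds come from the fit on reads.

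**Figure D1:**
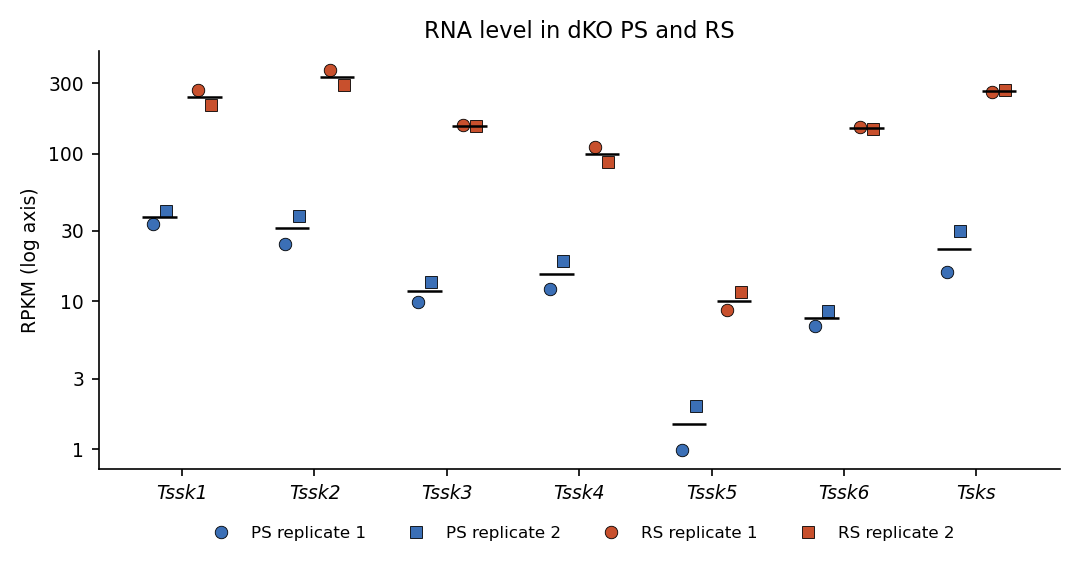
RNA level of each gene in RPKM, on a log axis, in the dKO PS (blue) and RS (orange) samples; circles are replicate 1, squares replicate 2 and black bars the mean of each pair. Both RS points of every gene lie above both PS points, and *Tssk5* lies lowest in each stage, at 0.985 to 11.5 RPKM.

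*Tssk1*, one of the tandem pair that phosphorylates TSKS, was at 33.3 and 41.1 RPKM in PS and at 269 and 213 RPKM in RS. Its log2 fold change was 2.74 ± 0.18 (SE, n = 2 per stage, edgeR adjusted p = 6.32e-06). *Tssk2*, its neighbour and partner, was at 24.6 and 38.1 RPKM in PS and at 369 and 291 RPKM in RS. The log2 fold change of *Tssk2* was 3.43 ± 0.23 (SE, edgeR adjusted p = 7.6e-06). The order of the pair turned between the stages. The ratio of *Tssk2* to *Tssk1* was 0.738 and 0.926 in the PS samples and 1.37 in both RS samples, without overlap. With 2 samples against 2, a two-sided exact permutation test cannot give less than p = 0.333, which it gave here.

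*Tsks*, the scaffold of the pair, was at 15.8 and 29.8 RPKM in PS and at 261 and 267 RPKM in RS. The RS replicates differed by a factor of 1.02 and the PS replicates by 1.89, and the stages did not overlap. Its log2 fold change was 3.57 ± 0.28 (SE, edgeR adjusted p = 1.26e-05). In RS, *Tsks* and *Tssk1* did not differ beyond their spread: each was the higher one in 1 of the 2 samples.

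*Tssk6*, whose product acts in the exchange of histones for protamines, was at 6.85 and 8.66 RPKM in PS and at 150 and 146 RPKM in RS. It was sixth of the 7 by level in PS and had the largest fold of the 7, with a log2 fold change of 4.30 ± 0.17 (SE, edgeR adjusted p = 3.29e-06). Of all genes tested, 99.2% had a lower log2 fold change. *Tssk6* overlaps *Ndufa13*, a complex I subunit gene on the opposite strand, by 344 bp, and the RNA libraries carried no strand, so reads within the overlap could belong to either. *Ndufa13* was at 47.6 and 43.5 RPKM in PS and at 73.3 and 59.0 RPKM in RS, a log2 fold change of 0.58 ± 0.15 (SE), which missed the fold threshold.

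*Tssk3*, a short kinase activated by PDK1, was at 9.84 and 13.6 RPKM in PS and at 156 and 153 RPKM in RS. Its log2 fold change was 3.76 ± 0.19 (SE, edgeR adjusted p = 3.43e-06), and the stages lay far apart beside the spread of each. *Tssk4*, whose product binds the outer dense fibre protein ODF2, was at 12.1 and 18.8 RPKM in PS and at 111 and 87.4 RPKM in RS. The log2 fold change of *Tssk4* was 2.74 ± 0.23 (SE, edgeR adjusted p = 2.11e-05).

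*Tssk5* was the lowest of the family in every sample, at 0.985 and 1.96 RPKM in PS (17 and 33 reads) and at 8.78 and 11.5 RPKM in RS (186 and 205 reads). The PS replicates differed by a factor of 1.99, and both lay below both RS replicates. Its log2 fold change was 2.81 ± 0.34 (SE, edgeR adjusted p = 0.000138), the least precise of the 7. Among genes of all levels, *Tssk5* stood above 51.7% and 58.9% of genes in PS and above 75.4% and 78.2% in RS, whereas *Tssk2* stood above 99.4% and 99.3% in RS.

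By mean level per transcript length, the order in PS was *Tssk1*, *Tssk2*, *Tsks*, *Tssk4*, *Tssk3*, *Tssk6* and *Tssk5*, and it held within each PS sample. The ranges of each gene and the next overlapped down to *Tssk3*, and only the steps from *Tssk3* to *Tssk6* and from *Tssk6* to *Tssk5* were free of overlap. In RS the order was *Tssk2*, *Tsks*, *Tssk1*, *Tssk3*, *Tssk6*, *Tssk4* and *Tssk5*, with an overlap only between *Tsks* and *Tssk1*. *Tssk1* and *Tssk2* together made up 66.0% and 64.8% of the summed RPKM of the 6 kinases in PS and 60.0% and 55.9% in RS. *Tssk6* made up 7.81% and 7.09% in PS and 14.1% and 16.2% in RS. In all, 0.0168% and 0.0252% of the reads on genes came from the 7 genes in PS and 0.215% and 0.193% in RS.

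Every one of the 7 genes was higher in PS replicate 2 than in PS replicate 1, by factors of 1.23 to 1.99. The summed RPKM of 7 round spermatid markers (*Prm1*, *Prm2*, *Tnp1*, *Tnp2*, *Acrv1*, *Spaca1* and *Txndc2*) was 450 and 778 in those samples, a factor of 1.73, against 13170 and 13970 in RS, and none of the 7 was at 0 in PS. All 7 were called higher in RS. Set against the mean of RS, the marker sum was 3.31% and 5.73% in PS, and *Tssk6* was 4.63% and 5.85%, *Tsks* 5.97% and 11.3%, *Tssk3* 6.37% and 8.78%, *Tssk2* 7.45% and 11.5%, *Tssk5* 9.72% and 19.4%, *Tssk4* 12.2% and 18.9% and *Tssk1* 13.8% and 17.1%. Single markers ranged from 2.49% (*Prm2*) to 10.3% (*Spaca1*) in replicate 1 and from 4.6% (*Prm1*) to 19.0% (*Acrv1*) in replicate 2. The part of spermatid RNA in the PS levels of the family was not tested.

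Of 7 spermatocyte markers, 5 were lower in RS and 0 higher, and *Sycp1* and *Ccna1* were not called. The 6 Leydig and peritubular markers summed to 714 and 537 RPKM in PS and to 69.8 and 44.0 RPKM in RS, with *Insl3* at 593 and 450 RPKM in PS, and 4 of the 6 were lower in RS. The 5 spermatogonial markers summed to 21.7 to 39.3 RPKM and the 5 Sertoli markers to 1.64 to 3.43 RPKM in the 4 samples. Of the spermatogonial markers 2 of 5 were higher in RS, and of the Sertoli markers 2 of the 3 tested. *Sox9* and *Amh* did not pass the count filter. The Sertoli markers called had few reads, 10 to 52 for *Wt1* and 1 to 15 for *Rhox5*. The part of these cells in the family's values was not tested. *Rnf8* was at 4.02 and 4.88 RPKM in PS and at 2.15 and 2.09 RPKM in RS, and *Scml2* at 0.724 and 1.71 RPKM in PS and at 0.649 and 1.72 RPKM in RS. With no wild-type RNA and counts over whole transcripts, these reads do not check the knockouts.

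Genes tied to the family were called in both directions. Of 11 genes for partners and substrates of the kinases, 4 were higher in RS, 3 were lower and 4 were not called, with a median log2 fold change of -0.06, beside 30.4% higher and 27.6% lower among all genes tested. *Odf2*, which encodes an outer dense fibre protein bound by TSSK4, was higher by 1.15 ± 0.12 (log2, SE), from 773 and 895 RPKM in PS to 1831 and 1827 RPKM in RS. *Tsacc*, whose product links the TSSK proteins to the chaperone HSP90, was higher by 0.77 ± 0.15, from 151 and 175 RPKM to 286 and 254 RPKM. *Crem*, a transcription factor gene of spermatids, was higher by 0.68 ± 0.13, and *Pdpk1*, which encodes PDK1, by 1.299 ± 0.13. For *Pdpk1* the fit on reads and the RPKM summed over isoforms differed in size: it was 2.46-fold higher by the fit, and 5.32-fold higher by mean RPKM, with 21.6 and 19.0 RPKM in PS and 120 and 96.3 RPKM in RS.

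The HSP90 genes themselves went the other way. *Hsp90aa1* fell by 0.85 ± 0.12 on the log2 scale, from 578 and 480 RPKM in PS to 270 and 301 RPKM in RS, and *Hsp90ab1* fell by 0.87 ± 0.14. *H2afx*, the gene of the histone variant that TSSK6 is needed to phosphorylate in spermatids, fell by 1.40 ± 0.17. The other 4 genes were not called: *Ppp1cc*, a phosphatase catalytic subunit found in the TSKS complex, at -0.33 ± 0.13, *Spag16*, a central apparatus gene, at -0.43 ± 0.12, *Meig1* at 0.20 ± 0.17 and *Creb1* at -0.06 ± 0.21. The first 2 of these had adjusted p-values of 0.0439 and 0.0136 but missed the 1.5-fold threshold.

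The AMPK-related kinases, the nearest families by kinase domain, gave 6 higher in RS, 2 lower and 8 not called of 16, with a median log2 fold change of 0.47. *Sik1*, a salt-inducible kinase gene, was higher by 2.50 ± 0.20 (log2, SE) and *Snrk* by 1.43 ± 0.18, and both stayed at or below 7.55 RPKM. *Mark2*, a polarity kinase gene, fell by 3.69 ± 0.16, from 62.3 and 61.5 RPKM in PS to 4.04 and 5.27 RPKM in RS, and *Mark1* fell by 1.71 ± 0.28. Among 7 other kinases of male germ cells, 2 were higher, 3 lower and 2 not called, with a median of -0.35. Beside both kinase lists, 30.4% of all genes tested were higher and 27.6% lower. *Camk4* was higher by 3.47 ± 0.21 and *Mak*, a kinase of flagella and cilia, by 0.95 ± 0.12, whereas *Stk31* fell by 1.90 ± 0.20 and *Nek2*, a centrosomal kinase gene, by 1.17 ± 0.11. Of these 23 kinases, only *Camk4* had a log2 fold change within the range of the 7 family genes, 2.74 to 4.30. Its level was low, 0.505 and 0.650 RPKM in PS and 6.83 and 5.59 RPKM in RS, below that of *Tssk5* in each stage.

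**Figure D2:**
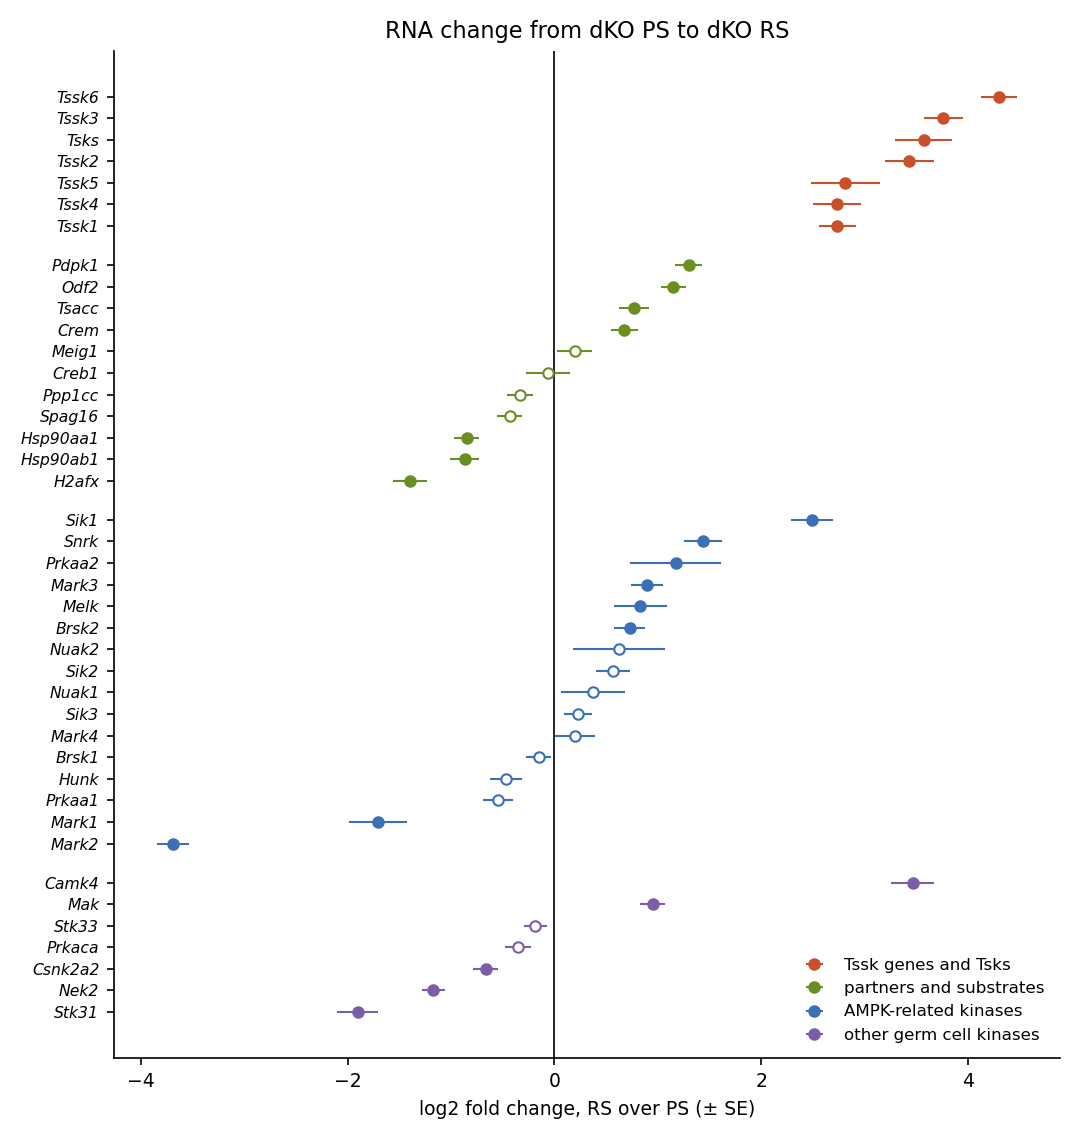
Log2 fold change of RNA from dKO PS to dKO RS for the 7 family genes, 11 partners and substrates, 16 AMPK-related kinases and 7 other germ cell kinases; bars are SE, filled points were called and open points were not. The family genes lie at 2.74 to 4.30, while the other lists lie on both sides of 0.

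The gene nearest to each of the 7 in level and stage pattern was found by Euclidean distance over the 4 RNA samples of log2(RPKM + 1), among 14640 genes. It was *Creb3l4* for *Tssk1* (distance 0.185), *Spert* for *Tssk2* (0.239), *Ubl4b* for *Tssk3* (0.191), *1700020L24Rik* for *Tssk4* (0.161), *Dram1* for *Tssk5* (0.127), *1700012A03Rik* for *Tssk6* (0.223) and *Txndc2* for *Tsks* (0.21). *Creb3l4*, for one, was at 35.3 and 46.2 RPKM in PS and at 271 and 208 RPKM in RS, beside 33.3, 41.1, 269 and 213 RPKM for *Tssk1*.

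In wild type cells, H3K27ac was higher in RS at 6 of the 7 start sites, with a mean fold enrichment 1.90 to 2.62 times that in PS. The exception was *Tssk6*. The value at a start site is the highest fold enrichment of any deposited summit within 2 kb. The fold enrichment is the pileup of fragments, with a small constant added, over a background value of the sample. Both RS samples lay above both PS samples at 6 of 7 genes, beside 13.5% of the 14680 genes with a summit in any sample, and both RS lay below both PS at 0 of 7, beside 53.9%. That background depends on the scale. Scaled as pileup over each sample's median, 4275 start sites were higher and 5077 lower in RS, against 1981 and 7907 by fold enrichment, and all 7 family genes were then higher. By percentile rank within each sample, 5082 were higher and 5292 lower, again with all 7 family genes higher.

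**Figure D3:**
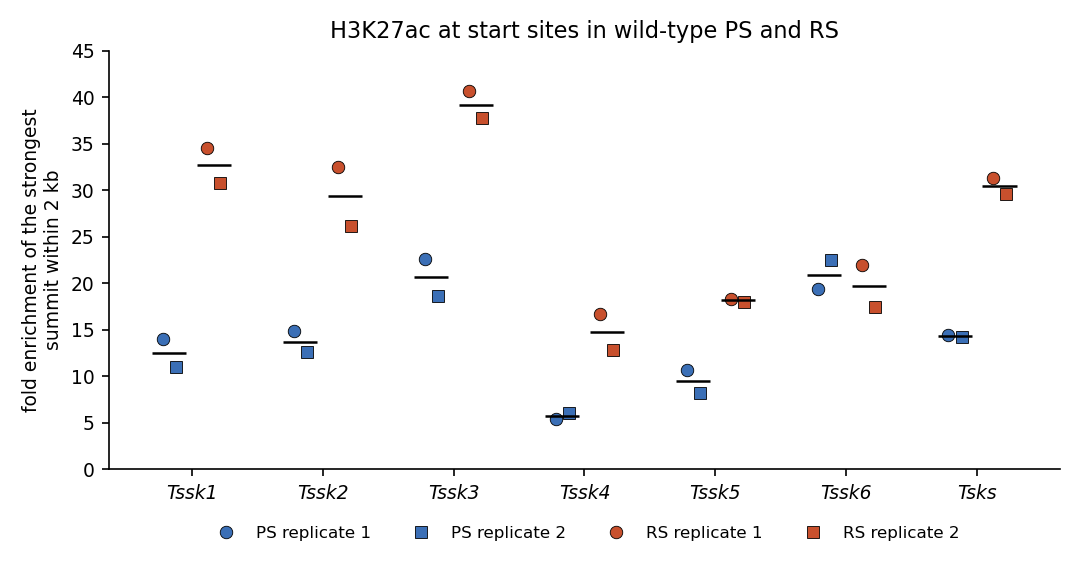
Highest H3K27ac fold enrichment within 2 kb of each start site in wild type PS (blue) and RS (orange); circles are replicate 1, squares replicate 2 and black bars the mean of each pair. The stages separate at 6 genes and overlap at *Tssk6*, where the 4 values run from 17.4 to 22.5.

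*Tssk3* had the highest values of the family in RS. Its fold enrichment was 22.6 and 18.6 in PS and 40.7 and 37.7 in RS, the latter above 99.6% and 99.7% of start sites in RS. The strongest summit lay 704 and 728 bp upstream in PS and 709 and 260 bp upstream in RS. *Fam229a* starts 420 bp upstream of *Tssk3* on the other strand and had the same 4 values, so the 2 promoters cannot be told apart. *Fam229a* RNA was at 25.2 and 46.8 RPKM in PS and at 400 and 291 RPKM in RS, a log2 fold change of 3.30 ± 0.30 (SE, edgeR adjusted p = 2.76e-05), so both genes of this head-to-head pair were higher.

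*Tssk1* had 13.99 and 10.96 in PS and 34.6 and 30.8 in RS, and *Tssk2* had 14.8 and 12.6 in PS and 32.5 and 26.1 in RS. The mean of log2(1 + fold enrichment) was higher in RS by 1.33 for *Tssk1* and by 1.04 for *Tssk2*. Under each of 3 alternatives that let in summits farther off, such as a 5 kb window reaching the start of the neighbouring *Dgcr2*, the difference for *Tssk1* was 0.64. The pair moved from about the middle of all start sites in PS (above 38.1% to 52.8% of them) to the top in RS (above 96.0% to 98.4%). Peaks joined the pair into 1 interval in 3 of the 4 samples. That interval spanned 9775 bp in PS replicate 1, 13358 bp in RS replicate 1 and 12358 bp in RS replicate 2, while PS replicate 2 had separate peaks of 5082 bp over *Tssk1* and 2273 bp over *Tssk2*. The intervals also took in the start of *Dgcr2*, 2475 bp upstream of *Tssk1* on the other strand.

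The summits of this interval were arranged differently in the 2 stages. In PS the *Dgcr2* start had the higher fold enrichment, 21.4 and 19.7. In RS the *Tssk1* start did, with 27.3 and 23.8 within 2 kb of *Dgcr2*. The 23.8 summit, in RS replicate 2, lay nearer the *Tssk1* start than the *Dgcr2* start, and the summit beside *Dgcr2* had 22.1. *Dgcr2* RNA was higher in RS by 1.58 ± 0.13 (log2, SE), less than *Tssk1* or *Tssk2*, at 31.6 and 31.1 RPKM. *Dgcr14*, whose start lies 12711 bp beyond that of *Tssk2*, had overlapping H3K27ac, 7.41 and 9.32 in PS and 19.5 and 8.71 in RS, and its RNA was not called (0.35 ± 0.16). *Gsc2*, 16422 bp from *Tssk2*, was not called either (0.46 ± 0.31), with overlapping H3K27ac of 3.48 to 6.92.

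**Figure D4:**
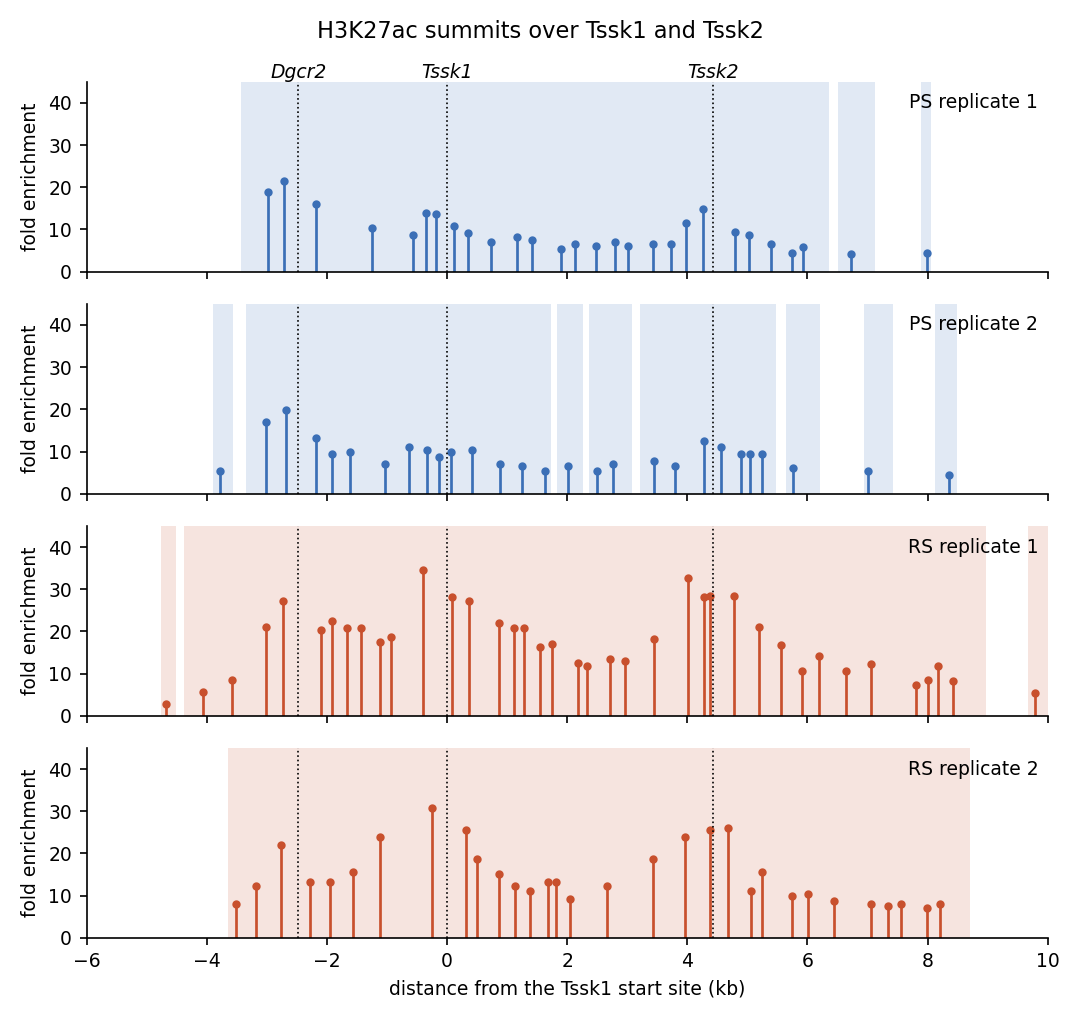
H3K27ac summits around *Tssk1* and *Tssk2* in the 4 wild type samples; the x axis is the distance from the *Tssk1* start in kb, stems give the fold enrichment of each summit, shading marks called peaks and dotted lines mark start sites. In both RS samples the tallest stem lies by *Tssk1*, at 34.6 and 30.8, and in both PS samples it lies by *Dgcr2*, at 21.4 and 19.7.

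*Tsks* had 14.4 and 14.3 in PS and 31.3 and 29.6 in RS, a difference of 1.04 in log2(1 + fold enrichment) with the tightest replicates of the 7 in PS. Its strongest summit lay downstream of the start in all 4 samples, by 134 to 689 bp. *Ap2a1*, an adaptor complex gene 13750 bp away, had 22.6 and 24.1 in PS and 35.0 and 29.6 in RS, and its RNA was higher by 0.84 ± 0.12 (log2, SE).

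*Tssk4* had the weakest mark of the family, 5.35 and 6.03 in PS and 16.7 and 12.8 in RS, a difference of 1.22. In PS, peaks covered 519 and 1171 of the 4001 bp around its start, and in RS 3425 and 2514 bp. The start itself lay outside any peak in PS replicate 1 and inside one in the other 3 samples. Its neighbours *Tm9sf1*, *Mdp1* and *Ipo4* were not called in RNA (0.19 ± 0.22, 0.18 ± 0.39 and 0.24 ± 0.12), and at *Ipo4* H3K27ac was lower in RS, 15.1 and 13.4 against 22.6 and 20.3 in PS. At *Tm9sf1* and *Mdp1* the H3K27ac values of the stages overlapped.

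*Tssk5* had 10.7 and 8.22 in PS and 18.3 and 18.0 in RS, a difference of 0.88, and peak cover around its start went from 42.1% and 44.6% to 81.3% and 75.4%. Its neighbours went the other way. *Mroh1*, 5575 bp upstream on the other strand, had 38.3 and 42.2 in PS and 14.6 and 11.03 in RS, and *Fam203a*, 6040 bp away, 15.2 and 19.2 in PS and 9.76 and 6.39 in RS. Neither was called in RNA, with log2 fold changes of -0.41 ± 0.12 for *Mroh1* and -0.39 ± 0.15 for *Fam203a* (SE). Their edgeR adjusted p-values were 0.0162 and 0.0404, but both missed the 1.5-fold threshold. When the window was widened to 5 kb, the *Tssk5* stages overlapped and the difference was 0.14. Only the PS replicate 2 value changed, to 24.7, from a summit in the peak over the *Mroh1* start.

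At *Tssk6* the 4 values overlapped, 19.3 and 22.5 in PS and 22.0 and 17.4 in RS, a difference of -0.09 in log2(1 + fold enrichment) and +0.19 when pileup was scaled to each sample's median. The start site was already marked in PS, above 67.1% and 71.0% of start sites, and stood above 82.2% and 82.8% in RS. Peaks covered 77.5% and 82.7% of the bases within 2 kb of it in PS, all of them in RS replicate 1 and 83.2% in RS replicate 2. *Ndufa13*, which starts 343 bp inside *Tssk6* on the opposite strand, had the same 4 values, so the 2 promoters cannot be told apart. *Tssk6* was thus the gene with the largest RNA difference of the 7 and the one without a separate range of H3K27ac fold enrichment. RNA and H3K27ac were read in mice of different genotype. By scaled pileup and by percentile rank, both RS samples lay above both PS samples at *Tssk6* too. *Cilp2*, 14823 bp away, had no summit in any sample, and its RNA was not called (-0.13 ± 0.39).

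For the 6 start sites without overlap, the two-sided exact permutation test gave p = 0.333, the smallest that 2 samples against 2 allow, and for *Tssk6* it gave p = 0.667, so no single start site can pass a threshold of 0.05 here.

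**Figure D5:**
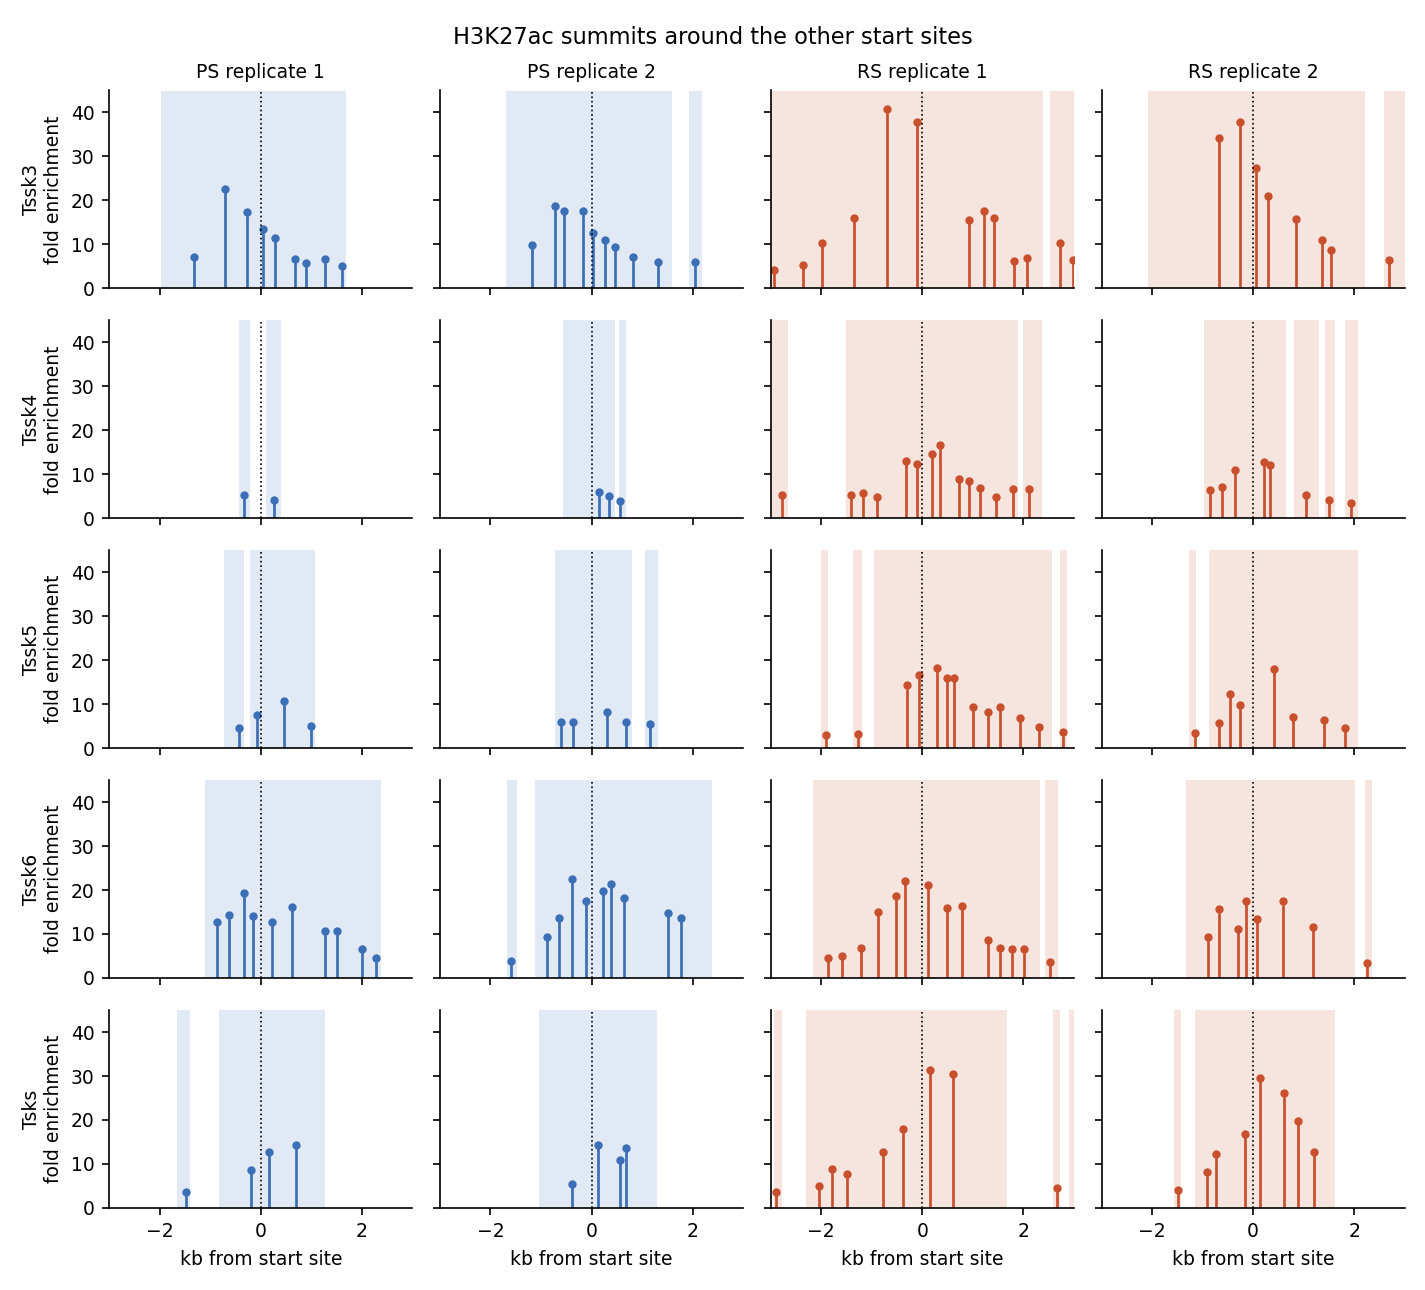
H3K27ac summits within 3 kb of the start sites (dotted) of *Tssk3*, *Tssk4*, *Tssk5*, *Tssk6* and *Tsks*, one row per gene and one column per wild type sample; stems give fold enrichment, shading marks called peaks, and x runs in the direction of transcription. *Tssk4* has stems of at most 6.03 in PS and up to 16.7 in RS, and *Tssk6* has stems of similar height in all 4 samples.

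The files assigned 17 and 22 H3K27ac intervals to the 7 genes in PS and 25 and 16 in RS, with 91 and 69 summits in PS and 146 and 104 in RS. An interval listed for both *Tssk1* and *Tssk2* counts for each. Within 2 kb of a start site lay 49 and 52 summits in PS and 73 and 58 in RS. The samples held 87325 and 95482 summits in PS and 168090 and 91207 in RS, so RS replicate 1 had the most both at the family and overall. *Tssk3* had 5 and 8 intervals listed as upstream in PS and 4 and 2 in RS, while *Tssk1* and *Tssk6* had 1 interval in each sample. No interval of *Tssk1*, *Tssk3* or *Tssk6* was listed for that gene alone.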

How the data were processed

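H3K27ac was measured by ChIPmentation in wild type cells and RNA by RNA-seq in dKO cells, with 2 samples per stage and assay. Samples were grouped by their labels. The authors, per the submitters' processing notes, aligned ChIP reads to mm10 with Bowtie 1.1.1 and called the peaks of every sample by MACS2 2.1.0.20140616; the study's methods name other versions of both. For each summit, the deposited lists give the pileup signal, the fold enrichment over background and the -log10 of its p-value and q-value. The fold enrichment is a ratio to background computed by the authors' software. Read totals are not given, so ChIP depth can be judged only indirectly, from peak numbers and from the background behind each fold enrichment. Equal pileup gave higher enrichment, hence lower background, in replicate 2 of each stage. Pileup 33 gave 13.99 at *Tssk1* (PS replicate 1) but 18.6 at *Tssk3* (PS replicate 2). Pileup 44 gave 18.3 at *Tssk5* (RS replicate 1) but 26.1 at *Tssk2* (RS replicate 2). Peak numbers, 41095 to 74919 per sample, did not follow background: the samples at these extremes, PS and RS replicate 1, were close in it. Pileup 54 gave 22.6 at *Tssk3* in the former, and 53 gave 22.0 at *Tssk6* in the latter. The authors aligned RNA reads with STAR 2.4.2a, kept unique alignments and split reads between RefSeq isoforms by expectation maximization. They deposited estimated counts, which were whole numbers so that rounding changed none, and RPKM, normalized by the authors for length and library size. Reads on genes numbered between 9655405 and 12289694 per library, and a single read was 1.04e-05% of the smallest.

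Rows were summed per gene. RS and PS were compared with edgeR 4.0.16 in R 4.3.3 (quasi-likelihood, TMM, genes reaching 10 counts in 2 or more samples, Benjamini-Hochberg over all 14647 genes). SE is the log2 fold change divided by the square root of F. H3K27ac was the highest fold enrichment of a summit within 2 kb of a start site (0 if none), compared as log2(1 + fold enrichment). Python 3.11.15 was used otherwise. The scripts were tested on simulated data. The study describes the replicates of both assays as biological. The labels do not tie them to single animals, and p-values measure the spread between these samples.

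The 7 genes, the gene lists and the tests were chosen with earlier results of these data known. Genes named are the 7, all partners, the 2 largest called changes per direction in each kinase list, every gene starting within 20 kb, and the nearest profile of each. Alternatives were other size factors, DESeq2 1.42.0, no filter, a replicate block, other thresholds, windows of 1 and 5 kb, a stricter peak p, other ChIP scales and leaving out each sample. The strongest summit of the whole interval was added after seeing the data.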

Additional observations from a re-analysis of the deposited data

How the results depend on the processing

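All 7 genes remained called higher in RS, and 0 lower, under each of the 11 alternatives of the RNA comparison, and all 7 log2 fold changes kept their direction. Leaving out each replicate gave log2 fold changes of 2.55 to 2.998 for *Tssk1*, 2.36 to 3.44 for *Tssk5* and 3.15 to 4.16 for *Tsks*, with the highest values of *Tssk5* and *Tsks* found without PS replicate 2. A stage left with 1 sample was assumed to vary like the other stage. With a 2-fold threshold, 2642 genes were lower in RS, against 4049. The replicate block gave 7 family genes higher, with 4589 genes higher and 4134 lower in all. The deviations of same-numbered samples correlated at 0.225 across genes, with 2 pairs only, and at 0.0348 across start sites, where the block gave 6 family genes higher, 2177 start sites higher and 8389 lower. It changed no call of the family.

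For H3K27ac, 5 to 7 of the 7 start sites were higher in RS over the alternatives. Without PS replicate 1 or RS replicate 1, *Tssk6* was lower in RS, so 0 to 1 start sites were lower when each replicate was left out. Leaving out each replicate gave 2094 to 4273 start sites higher over all genes, the most without RS replicate 2. Scaling by pileup gave 4275 higher and 5077 lower, and percentile ranks 5082 higher. At *Tssk1* the difference was 0.64 in place of 1.33 with a 5 kb window, with peaks annotated to the gene or with the strongest summit of the whole interval, which reach the *Dgcr2* start. Depth limits *Tssk5* most, with 17 and 33 reads in PS.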
